A study of Mus musculus with 35 samples.

Results

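The small intestine of 9 wild-type mice was compared on 9 arrays, 4 after WY14643 and 5 after DHA, out of 35 arrays in the series. WY14643 is a synthetic agonist of PPARα, and DHA (docosahexaenoic acid), a fish oil fatty acid, was given as the triacylglycerol tridocosahexaenoin. The arrays were chosen by their titles, and all probesets whose mean exceeded 32 (5 on the log2 scale) in at least 1 of the 8 groups of the series were described. These were 15384 of 45037 probesets and stood for 8626 genes. The question of the comparison is how the intestinal response to a strong synthetic ligand differs from that to a dietary ligand of the same receptor in the same tissue.

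The mice were males of pure 129 background, wild-type of 129S1/SvImJ and PPARα-null of 129S4/SvJae. Loss of PPARα and the difference in substrain therefore cannot be told apart, and "genotype" below stands for both together. All mice were 4 months old, had eaten a modified AIN76A diet with olive oil as its fat for 2 weeks, and were fasted for 4 h. Each received 1 gavage of 400 μl and gave its full-length small intestine 6 h later, with 1 mouse per array. WY14643 was given as a 0.1% suspension in 0.5% carboxymethyl cellulose and DHA as the undiluted oil, and all groups shared the diet, fast, time and volume. Agonist, vehicle, fat load and any batch therefore cannot be told apart. Mice given a vehicle alone were not analysed here, so "higher" and "lower" below always mean WY14643 relative to DHA. Wild-type mice given oleic acid (OA, as triolein, 4 mice) or eicosapentaenoic acid (EPA, as trieicosapentaenoin, 5 mice) serve below as reference groups. Both were gavaged as 400 μl of the triacylglycerol, as DHA was. EPA values include replicate 5, an array that goes against its genotype label, unless its removal is stated.

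PPARα is a nuclear receptor that binds fatty acids and their derivatives and acts on DNA together with RXR. In liver and intestine it is best known for driving genes of fatty acid uptake, activation and oxidation in mitochondria and peroxisomes. The villus enterocyte meets large amounts of dietary fat, which it oxidises in part, stores in droplets or packs into chylomicrons.

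One array went against its group. Over the 2954 genes called between the wild-type groups, the array labelled PPARα-null DHA replicate 3 lay nearer to the rest of its own group in 23.6% of genes, against 74.6 to 86.1% for the other 7 PPARα-null arrays. It lay close to the PPARα-null WY14643 arrays, and its genotype was as labelled. No wild-type contrast uses this array except through the shared estimate of spread, but the main results on PPARα-null mice below are given with it and without it. Leaving it out favours a difference between the agonists in null mice. Among the 9 wild-type arrays, judged over the 1148 genes called in PPARα-null mice, WY14643 replicate 4 was nearer its own group in 73.7% of genes and the other 8 in 77.8 to 94.8%. The targeted pathway separated the genotypes: the probeset shared by Cyp4a10 and Cyp4a31, fatty acid omega-hydroxylases, read 8.47 to 12.75 in the 9 wild-type mice and 1.36 to 2.50 in the 8 PPARα-null mice of these groups. Within wild-type mice it read 12.50, 12.75, 12.33 and 11.83 after WY14643 and 9.78, 9.51, 9.51, 8.47 and 9.88 after DHA. Its difference was 2.92 ± 0.27 (SE; adjusted p = 6.37e-06), or 7.56-fold.

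Of the 8626 genes, 2954 (34.2%) were called at an adjusted p under 0.05. They were split into 1437 higher (16.7%) and 1517 lower (17.6%) genes, and the median over all genes was -0.01 on the log2 scale. Most differences were modest. The median absolute difference of the called genes was 0.52, and 350 called genes differed more than 2-fold, 210 of them higher and 140 lower. The 4 and 5 values did not overlap in 2476 genes (28.7%). p-values measure the spread between these mice, and in whole intestine fewer cells of a type and less RNA per cell cannot be told apart.

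The gene with the largest positive log2 difference on the deposited values was Acot3, a peroxisomal thioesterase that releases fatty acids from long-chain acyl-CoAs. Its log2 level was 8.55, 8.49, 8.24 and 6.39 after WY14643 and 3.71, 4.07, 2.94, 3.09 and 2.88 after DHA. All DHA mice lay under the limit of 5 and all WY14643 mice above it, with replicate 4 lowest. Acot3 was at least 7.57-fold higher (log2 difference 4.58 ± 0.37, SE; adjusted p = 4.39e-06), and the size beyond that bound rests on levels under the limit. Acacb, the acetyl-CoA carboxylase isoform at the mitochondrial surface, read 5.90, 6.75, 7.05 and 5.71 after WY14643 against 3.47, 2.81, 2.67, 2.86 and 2.47 after DHA. It was at least 2.56-fold higher (adjusted p = 2.62e-06), again without overlap. Slc16a13, a monocarboxylate transporter family member, read 8.05, 8.81, 8.59 and 7.18 against 5.37, 5.37, 5.60, 5.01 and 5.10, a 7.29-fold difference (adjusted p = 4.95e-06).

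**Figure D1:**
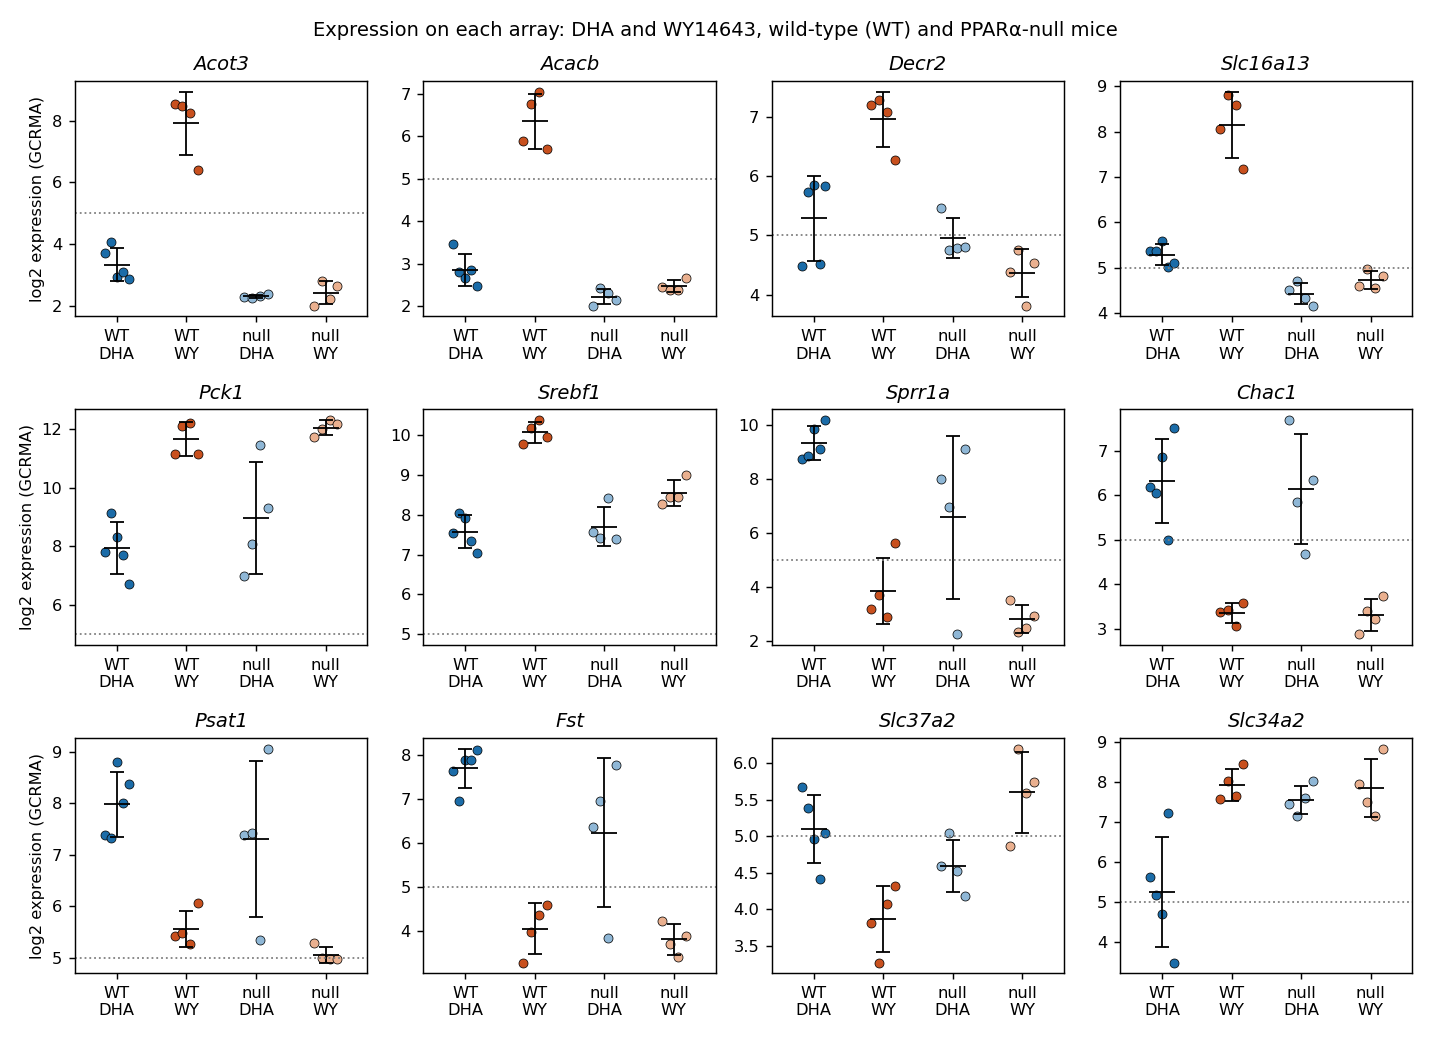
Log2 level of 12 genes on each array of the 4 groups (wild-type and PPARα-null mice after WY14643 or DHA), with the group mean and SD as bars and the expression limit of 5 as a dotted line. Acot3, Acacb and Slc16a13 are high in wild-type WY14643 mice only among the 4 groups shown, whereas Pck1, Sprr1a, Chac1, Psat1 and Fst separate the agonists in both genotypes apart from 1 PPARα-null DHA array at or near the WY14643 level.

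Mitochondrial fatty acid oxidation genes were mostly higher. Of the 23 expressed genes on this list 20 were called higher and 0 lower, with a median difference of 0.55. Acads, the short-chain acyl-CoA dehydrogenase, read 7.73, 8.21, 8.29 and 7.95 after WY14643 and 7.15, 5.47, 3.89, 5.67 and 4.22 after DHA, 6.81-fold higher (adjusted p = 0.000617). The DHA mice spread widely and 1 of them came close to the WY14643 mice. Eci1, an enoyl-CoA isomerase needed for unsaturated fatty acids, was 2.39-fold higher, Crat (carnitine acetyltransferase) 2.34-fold, and Slc22a5, the plasma membrane carnitine carrier, 2.23-fold. The gate of the pathway differed less. Cpt1a, which makes long-chain acylcarnitines, was 1.36-fold higher on the probeset used (adjusted p = 0.00768). Other Cpt1a probesets gave 1.35-fold and 1.59-fold. The probeset at 1.59-fold also had a difference between genotypes of 1.00 in limma (adjusted p = 0.0144), and the probeset used had one of 0.58 (adjusted p = 0.17). Slc25a20, the carrier that brings acylcarnitines into the mitochondrion, was 1.68-fold higher, and Hadha, the trifunctional protein subunit, 1.52-fold. Later steps of energy metabolism gave few calls. Of 40 respiratory chain subunits 1 was called lower. Of 16 citric acid cycle genes 0 were called by limma and 3 had an unadjusted p under 0.05, with a median difference of 0.03.

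Peroxisomal genes followed the same direction, with 24 of 33 called higher, 0 lower and a median of 0.53. Ehhadh, the bifunctional enzyme of the peroxisomal spiral, read 12.05, 12.50, 12.16 and 11.33 after WY14643 against 9.74 to 10.09 in the 5 DHA mice, 4.26-fold higher (adjusted p = 4.95e-06). Acox2, an acyl-CoA oxidase for branched chains and bile acid intermediates, was 4.55-fold higher and Acaa1b, a peroxisomal thiolase, 4.49-fold. Decr2 reduces the dienoyl-CoAs that arise from polyunsaturated fatty acids such as DHA. It read 7.21, 7.29, 7.08 and 6.28 after WY14643 and 4.49, 5.73, 5.86, 4.52 and 5.84 after DHA and was 3.20-fold higher (adjusted p = 0.00131). Omega-hydroxylation genes counted 6 of 7 higher, among them Adh4 at 2.43-fold.

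Acyl-CoA thioesterases did not all move together. Of 11 genes 6 were called higher and 1 lower. Acot1, the cytosolic long-chain enzyme, was 3.38-fold higher, Acot4 2.42-fold and Acot8, a peroxisomal enzyme, 1.77-fold. Acot9, a mitochondrial enzyme, was 1.44-fold lower (adjusted p = 0.00487).

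**Figure D2:**
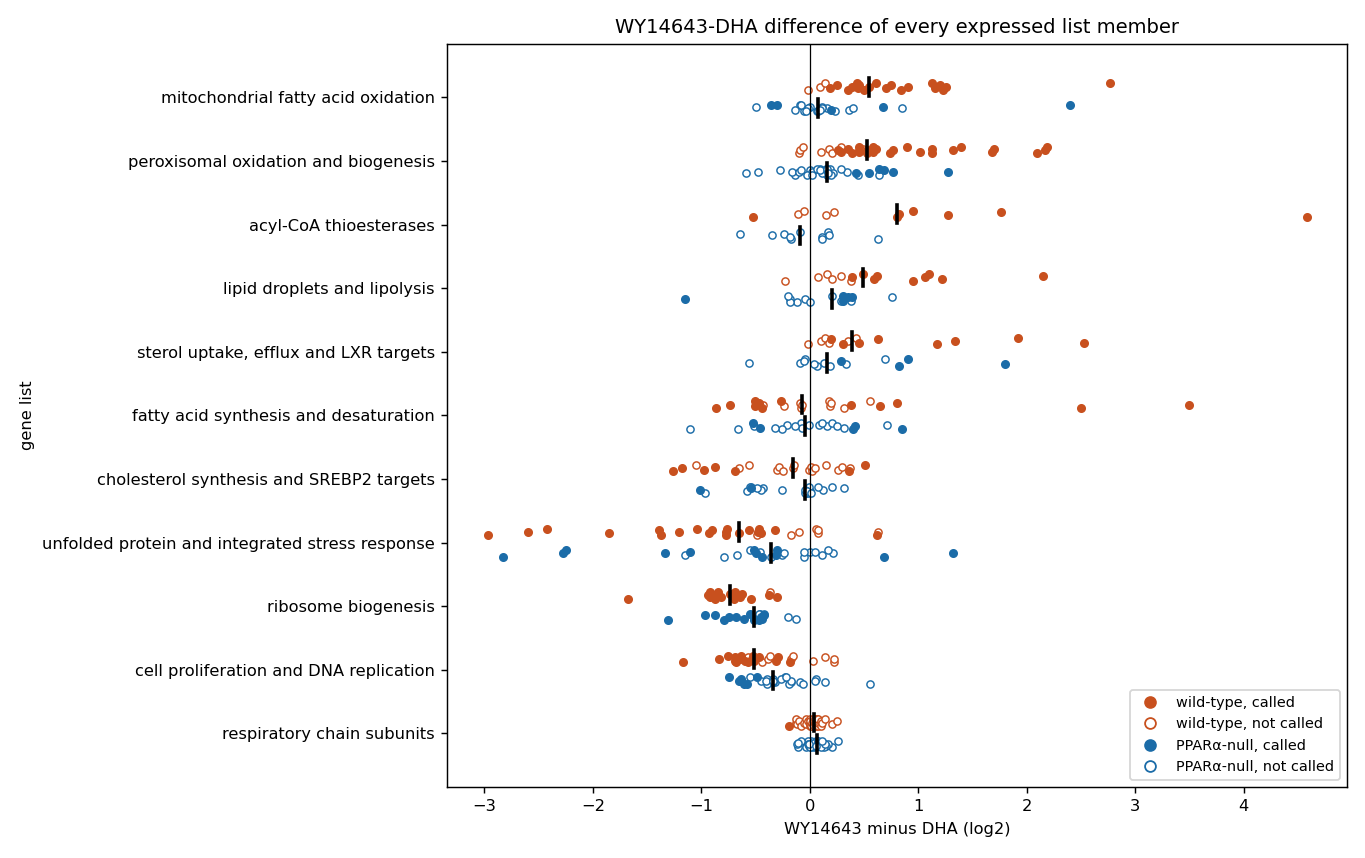
Log2 difference (WY14643 minus DHA) of every expressed member of 11 gene lists, in wild-type and PPARα-null mice, with filled dots for called genes and a black bar for the list median. In wild-type mice the mitochondrial and peroxisomal dots lie mostly above 0 and the stress response and ribosome biogenesis dots mostly below 0.

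Ketone synthesis and fuel switch genes counted 10 of 18 higher and 0 lower. Pck1, the gluconeogenic phosphoenolpyruvate carboxykinase, was expressed in all 9 mice and reached a larger fold than the bound for Acot3. It read 11.15, 12.10, 12.21 and 11.16 after WY14643 and 7.81, 9.13, 8.31, 7.70 and 6.72 after DHA, so the groups lay about 2 units apart at their closest, and the fold was 13.2 (adjusted p = 0.000684). G6pc, the glucose-6-phosphatase catalytic subunit, was 4.42-fold higher. Pdk4 and Pdk2, kinases that switch off pyruvate dehydrogenase, were 3.51-fold and 3.61-fold higher, and Angptl4, a secreted inhibitor of lipoprotein lipase, 2.92-fold. Hk2, a hexokinase that starts glycolysis, went the other way and was 2.49-fold lower, as was Slc2a1, a glucose transporter, at 3.08-fold lower (adjusted p = 5.86e-05). Glucose genes as a whole did not move in 1 direction. Of 17 hypoxia and glycolysis genes 3 were higher and 3 lower, with a median of 0.01. Of 11 sugar transport and disaccharidase genes 3 were higher and 2 lower, with a median of 0.40.

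Of 15 lipid droplet and lipolysis genes 9 were called higher and 0 lower. The 3 lipases that take triacylglycerol apart step by step were all called. Pnpla2, which removes the first fatty acid, was 2.33-fold higher, Lipe at least 1.57-fold and Mgll, the monoacylglycerol lipase, 2.14-fold. G0s2, an inhibitor of Pnpla2, was also higher, with 8.92, 9.24, 8.76 and 8.33 against 7.94, 7.50, 8.14, 7.13 and 8.06 (2.09-fold, adjusted p = 0.0213). This call was lost without DHA replicate 4 (adjusted p = 0.0566), WY14643 replicate 1 (0.0538) or WY14643 replicate 2 (0.0724).

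Fat absorption genes were divided. Of 19 uptake, binding and activation genes 7 were higher (36.8%) and 3 lower (15.8%), beside 16.7% and 17.6% over all genes. Cd36, a fatty acid receptor, was 2.04-fold higher and Acsl3, an acyl-CoA synthetase, 2.73-fold higher. Acsl4, a synthetase with preference for polyunsaturated fatty acids, was 2.59-fold lower (adjusted p = 0.000273). The abundant binding proteins Fabp1 and Fabp2 differed by 0.06 and 0.07 and were not called. In triacylglycerol resynthesis and chylomicron assembly 10 of 28 genes were higher and 2 lower. Apob, the structural protein of chylomicrons, was 2.90-fold higher (adjusted p = 0.00107), but its expressed probesets differed in sign. Mttp, which loads lipid onto it, differed by -0.05 and was not called. The count of 10 was 6 without WY14643 replicate 1 and 5 without WY14643 replicate 2.

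Srebf1, the transcription factor of lipogenesis, read 9.78, 10.19, 10.38 and 9.95 after WY14643 and 7.55, 8.04, 7.93, 7.34 and 7.03 after DHA, 5.64-fold higher (adjusted p = 6.37e-06). Its list split in both directions, with 5 of 22 genes higher (22.7%) and 7 lower (31.8%), beside 16.7% and 17.6% over all genes. Fasn, the fatty acid synthase, was 1.82-fold lower, Elovl6, which elongates its product, 1.66-fold lower, and Scd1, the stearoyl-CoA desaturase, differed by -0.08 with an adjusted p of 0.904. The count of 7 was 4 without probesets that match several transcripts, and the count of 5 was 3 without DHA replicate 5. Cholesterol synthesis genes stood at 2 higher and 5 lower of 23, 21.7% lower beside 17.6% over all genes, with Sqle, squalene epoxidase, 2.40-fold lower and Lss, lanosterol synthase, 2.27-fold lower. The call of Sqle was lost without WY14643 replicate 2 (adjusted p = 0.0521), and the 5 lower genes became 9 without WY14643 replicate 4. Genes of sterol uptake and efflux counted 8 of 14 higher and 0 lower. Abcg8, which with Abcg5 returns sterols to the gut lumen, read 10.65, 10.76, 10.65 and 9.83 after WY14643 against 7.82, 8.53, 8.31, 7.52 and 7.52 after DHA (5.78-fold, adjusted p = 0.00023). Abcg5 was 2.25-fold higher, Mylip, which degrades the LDL receptor, 3.78-fold, and Abca1, the basolateral cholesterol exporter, 2.53-fold.

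Among the receptors, Ppara itself was higher, with 11.67, 11.68, 11.71 and 11.06 after WY14643 and 10.37, 10.45, 10.35, 9.96 and 10.06 after DHA (2.45-fold, adjusted p = 0.000125). In PPARα-null mice this probeset was higher as well, by 0.79 (adjusted p = 0.0181), a call lost in 3 of 17 fits with single arrays left out. Without PPARα-null DHA replicate 3 the difference was 0.97 (adjusted p = 0.00106). Another Ppara probeset read 7.24 to 9.58 in the 9 wild-type and 5.29 to 6.56 in the 8 PPARα-null mice. It separated the genotypes, but the probes still read above 5 in null mice and deletion was not tested. Pparg was 2.09-fold lower (adjusted p = 0.000403), with 5.34, 4.82, 5.24 and 5.55 against 6.34, 6.36, 6.50, 6.33 and 5.98. Neither Ppard (-0.07, adjusted p = 0.744) nor Rxra (0.26, adjusted p = 0.0673) was called. Rxra passed without DHA replicate 3 (adjusted p = 0.0497). Of 12 clock genes 5 were higher and 0 lower, among them the repressor Cry2 at 1.69-fold. The 5 became 2 without WY14643 replicate 1 and 3 without DHA replicate 5. Vdr, the vitamin D receptor, was 1.83-fold higher, and Nr0b2, which restrains bile acid synthesis, 2.48-fold higher.

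**Figure D3:**
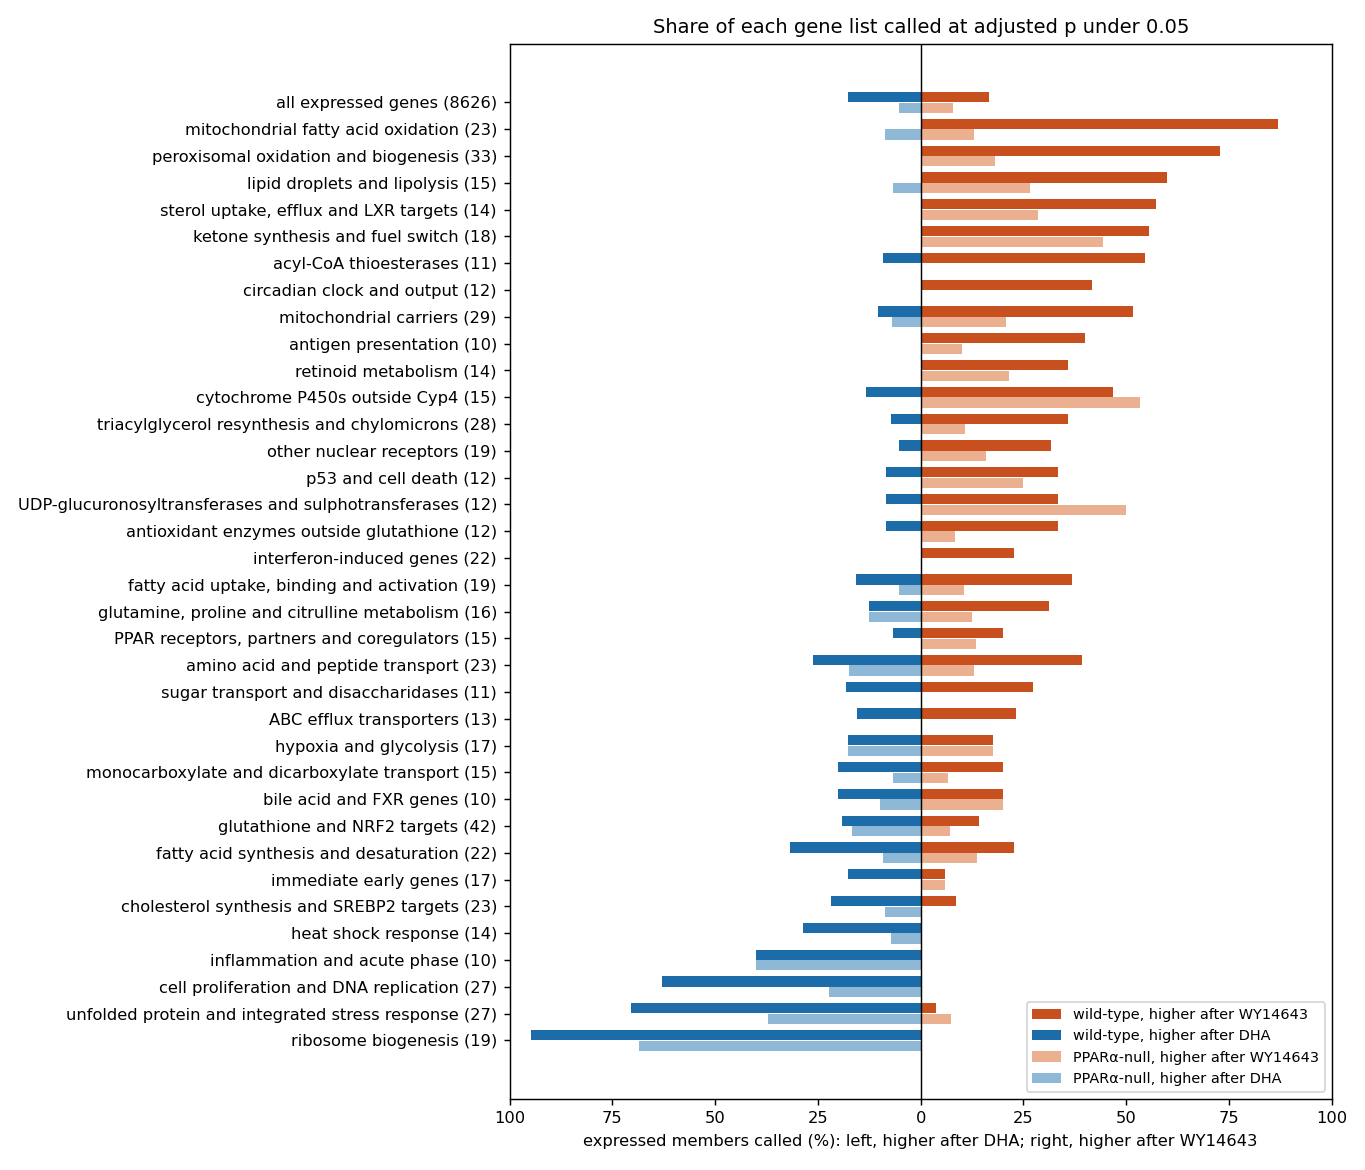
Share (%) of the expressed members of each gene list called higher after WY14643 (right) and higher after DHA (left), in wild-type and PPARα-null mice, beside the share over all expressed genes. The lipid oxidation lists extend to the right and ribosome biogenesis, the stress response and proliferation to the left.

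Nutrient transport was mixed. Mitochondrial carriers leaned higher, 15 of 29 against 3 lower, led by Slc25a42, a coenzyme A carrier (at least 2.92-fold). Amino acid transporters counted 9 higher (39.1%) and 6 lower (26.1%) of 23, beside 16.7% and 17.6% over all genes. Slc7a1, which carries cationic amino acids, was 2.62-fold lower and Slc1a4, a neutral amino acid carrier, differed by -1.25, whereas Slc6a20a, the imino acid carrier of the brush border, was 2.07-fold higher. Slc5a12, a lactate carrier, read 9.62, 10.01, 9.64 and 9.71 after WY14643 and 8.05, 8.76, 8.38, 7.03 and 6.15 after DHA (4.20-fold). Slc34a2, the intestinal phosphate transporter NaPi-IIb, read 7.58, 8.03, 7.65 and 8.46 against 5.63, 5.18, 4.69, 7.23 and 3.47, and was 6.45-fold higher (adjusted p = 0.00149). DHA replicate 4 came within 1 unit of the lowest WY14643 mouse. The OA mice averaged 8.56 and the EPA mice, with replicate 5 included, 8.15 in Slc34a2, so the DHA mean was the lowest of the wild-type groups. The other phosphate carriers Slc20a1 and Slc20a2 and the calcium pump Atp2b1 went the opposite way, with log2 differences of -0.91, -1.04 and -1.09.

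Among cytochrome P450s outside Cyp4, 7 of 15 were higher and 2 lower, with Cyp2c23, an arachidonic acid epoxygenase, 3.28-fold higher. Glutathione and NRF2 target genes counted 8 of 42 lower (19%) and 6 higher (14.3%), shares near those over all genes (17.6% and 16.7%). The list median was -0.05. The members named next were all lower, and none of the 6 higher genes is named. Gclc, the catalytic subunit of the enzyme that limits glutathione synthesis, read 9.80, 10.04, 10.06 and 9.57 after WY14643 and 11.06, 11.49, 11.68, 11.05 and 11.50 after DHA, 2.81-fold lower (adjusted p = 0.000276). The groups did not overlap. The OA mice averaged 9.51 in Gclc and the EPA mice 10.24. Gsta2, a glutathione transferase, was 2.67-fold lower, Srxn1, sulphiredoxin, 1.99-fold and Nqo1, a quinone reductase, 1.79-fold. The 6 higher genes became 2 without DHA replicate 4, WY14643 replicate 1 or WY14643 replicate 2, and 3 without DHA replicate 5.

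Genes of the unfolded protein and integrated stress response, through which cells slow translation and refill amino acids and chaperones, were mostly lower after WY14643 than after DHA. Of 27 expressed genes 19 were called lower after WY14643 and 1 higher, with a median of -0.65 beside -0.01 for all genes. Chac1, which breaks down glutathione, read 3.37, 3.42, 3.06 and 3.59 after WY14643 and 6.18, 6.06, 6.87, 4.99 and 7.52 after DHA, at least 2.51-fold lower (adjusted p = 0.000549). Psat1, of serine synthesis, read 5.41, 5.48, 5.26 and 6.06 against 7.39, 7.33, 8.80, 8.0 and 8.37 (5.38-fold lower, adjusted p = 0.00199). Mthfd2, of mitochondrial folate metabolism, was 6.06-fold lower, Phgdh, the first enzyme of serine synthesis, 3.61-fold and Asns, asparagine synthetase, 2.63-fold. The transcription factors of the response differed less: Atf5 was at least 1.83-fold lower, Atf4 1.48-fold and Xbp1 1.40-fold, while Ddit3 (-0.49) was not called. The ER chaperone Hspa5 was 1.71-fold lower. Herpud1, of ER-associated degradation, was the exception at 1.54-fold higher.

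ATF4 acts through a composite CEBP-ATF element with the core TGATGNAA. The 300-base RefSeq promoters around the gene start (GRCm38.p6) were searched on both strands for these letters, a motif chosen after the values were seen. The core occurred in 6 of the 25 stress response genes with a promoter (24%), in 202 of 7049 expressed genes with one (2.87%) and in 1304 of 32851 promoters overall (3.97%). Genes called higher held it in 2.97% and genes called lower in 3.54%. A match is a description of letters and not of binding. The list gathers genes of the response in which ATF4 acts, so its share of 24% cannot be read as a result of the agonist contrast. The source of that share was not tested. Of the 18 stress response genes called lower that have a promoter 4 held the core (22.2%), and Mthfd2, Psat1 and Phgdh did not. The 28-base windows are printed to show where these letters stand in the 6 genes. Each runs 5′ to 3′ on the strand where the core reads TGATGNAA, with the core in capitals.
Chac1, chr2:119351039-119351066, minus strand: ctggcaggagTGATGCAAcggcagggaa
Asns, chr6:7693215-7693242, minus strand: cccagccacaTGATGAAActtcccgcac
Atf3, chr1:191183426-191183453, plus strand: gcggacttggTGATGCAAgtgcgagaag
Trib3, chr2:152344029-152344056, plus strand: cccgcccggcTGATGTAAacctgagcta
Herpud1, chr8:94386307-94386334, minus strand: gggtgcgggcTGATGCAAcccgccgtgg
Vldlr, chr19:27216810-27216837, minus strand: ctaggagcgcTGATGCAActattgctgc
The first 4 genes were lower after WY14643, Herpud1 was higher and Vldlr (-0.17) was not called, so the element stood in genes of both directions. Of 4 further motifs searched, the antioxidant response element TGACNNNGC occurred in 17.2% of expressed genes with a promoter, in 16.9% of those called higher and in 18.4% of those called lower. A PPAR response element in its strict direct repeat 1 form occurred in 3 genes (0.0426%), with 0 called, and a sterol element in 3 genes, with 0 called higher and 1 lower. A heat shock element occurred in 0.624% of genes, in 0.17% of those called higher and in 0.886% of those called lower.

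Ribosome biogenesis genes were lower in 18 of 19 cases with a median of -0.74. Nop58, a core protein of the small nucleolar particles, read 5.17, 4.95, 4.57 and 4.51 after WY14643 and 5.91, 6.11, 6.44, 6.68 and 7.25 after DHA, at least 2.78-fold lower (adjusted p = 0.000192). Ddx21, an RNA helicase of the nucleolus, was 1.92-fold lower, and only Rrp9 (-0.36) was not called. Proliferation genes followed, with 17 of 27 lower, 0 higher and a median of -0.51. Rrm2, which makes deoxynucleotides, was 2.25-fold lower and Mcm4, of the replicative helicase, 1.69-fold. Of 7 expressed markers of stem and crypt base cells 1 was called lower, with a median of 0.04. Their summed linear level ranged from 5130 to 5470 after WY14643 and from 4550 to 5590 after DHA. Lgr5, Ascl2 and Ephb2 of this list were not among the expressed genes, so these values do not show that crypt content was alike. Of 14 heat shock genes 4 were lower (28.6%, beside 17.6% over all genes). The chaperonin pair Hspd1 and Hspe1 differed by -0.62 and -0.58.

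The largest negative difference was that of Sprr1a, a cornified envelope protein induced in injured epithelium. It read 3.18, 3.70, 2.87 and 5.61 after WY14643 and 8.72, 8.82, 9.83, 9.10 and 10.16 after DHA, at least 20.1-fold lower (adjusted p = 0.000754). Of the 4 WY14643 mice 1 lay above the limit of 5, and the groups did not overlap. The OA mice averaged 9.34 and the EPA mice 9.68 in Sprr1a, close to the DHA mice. Fst (follistatin), an activin antagonist, read 3.27, 3.96, 4.35 and 4.59 against 7.64, 6.96, 7.89, 7.89 and 8.12, at least 6.50-fold lower. Ereg (epiregulin), a ligand of the EGF receptor, was 7.04-fold lower and Plat, tissue plasminogen activator, 6.64-fold. Of 27 inflammation genes listed only 10 were expressed, and Il1b, Il6 and Tnf were not among them. Of these 10 genes 4 were lower (40%, beside 17.6% over all genes) and 0 higher. They were Il33, an epithelial alarmin, by 4.95-fold, Ptgs2, the inducible cyclooxygenase, by at least 2.29-fold, Il18 by 1.75-fold and Reg3b, an antimicrobial lectin, by 1.51-fold. Reg3b lost its call without any 1 of 6 wild-type arrays (WY14643 replicates 1, 2 and 3 and DHA replicates 1, 4 and 5), with adjusted p-values up to 0.105. Of 22 interferon-induced genes 5 were higher (22.7%, not far from 16.7% over all genes) and 0 lower. Irf1, an interferon regulatory factor, was among the 5 at 1.70-fold. The 5 became 3 without DHA replicate 1 or DHA replicate 5, 2 without WY14643 replicate 4 and 8 without PPARα-null DHA replicate 4.

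Enterocyte markers were 4 of 9 higher (44.4%, beside 16.7% over all genes) and 0 lower, with a median of 0.14. Their summed level was 80800 to 86000 after WY14643 and 70100 to 83100 after DHA, so the ranges overlapped. Whether enterocyte content differed was not tested. Markers of most other cell types gave few calls, with smooth muscle 0 of 9 called, endothelium 0 of 5 and T cell 0 of 4. The T cell markers had a median of 0.72, and 3 of the 4 had an unadjusted p under 0.05 in limma. Up to 3 were called higher when single arrays were left out, and their summed level was 1270 to 1740 after WY14643 and 660 to 1360 after DHA. Cd3e, Cd3d, Cd3g and Cd4 were not expressed by the limit used. The 10 expressed pancreatic acinar markers were also uncalled, although their summed level ran from 14200 to 59500 after WY14643 and from 10500 to 163000 after DHA. These levels varied between mice within a group by more than they differed between groups. Their part in the results was not tested.

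To ask how much of the contrast was also present without PPARα, the same agonists were compared in PPARα-null mice, which were of another substrain. There 1148 of 8626 genes (13.3%) were called, 684 higher (7.93%) and 464 lower (5.38%). Without PPARα-null DHA replicate 3 the count was 2242 (26.0%), split into 1236 (14.3%) higher and 1006 (11.7%) lower, so the size of the null list depends on that array. Without any other single array of the null groups the count ranged from 184 to 895. Of the 2954 genes called in wild-type mice 2768 had the same sign in null mice (93.7%) and 846 were called there in the same direction, which was 28.6% of the wild-type and 73.7% of the null list. Without the array these were 2799 and 1547 genes, 52.4% and 69% of the lists. Over all 8626 genes the 2 sets of log2 differences had a Pearson correlation of 0.758 (0.786 without the array), as a description across genes from separate mice.

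The difference of the contrast between genotypes was tested directly, and 51 genes (0.591%) were called, 39 (0.452%) with a more positive and 12 (0.139%) with a more negative difference in wild-type mice. Without PPARα-null DHA replicate 3 there were 61 (0.707%), 46 (0.533%) and 15 (0.174%), with 41 genes in both sets. When single arrays were left out, the count lay between 24 (without wild-type WY14643 replicate 1 or 2) and 89 (without wild-type WY14643 replicate 4), and 22 of the 51 genes were called in each of the 17 fits. Of the 51 genes 50 were called in the wild-type contrast, which shares its arrays with this test. Acot3 differed by 0.11 in null mice (adjusted p = 0.878), where it read 2.00, 2.81, 2.23 and 2.64 after WY14643 and 2.29, 2.26, 2.31 and 2.37 after DHA. Its genotype difference was 4.47 (adjusted p = 0.00117, and 0.00168 without the array). Acacb had a genotype difference of 3.25 (3.22 without the array) and Slc16a13 one of 2.56 (2.59), and neither was called in null mice. These 3 genes were among the 22. For Acot3 and Acacb the sizes rest on levels under the limit. On the scale log2 of the linear value plus 32, which flattens such levels, the genotype differences were 2.70 for Acot3 (adjusted p = 0.00262), 1.52 for Acacb (adjusted p = 0.00262) and 2.04 for Slc16a13 (adjusted p = 0.00285).

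**Figure D4:**
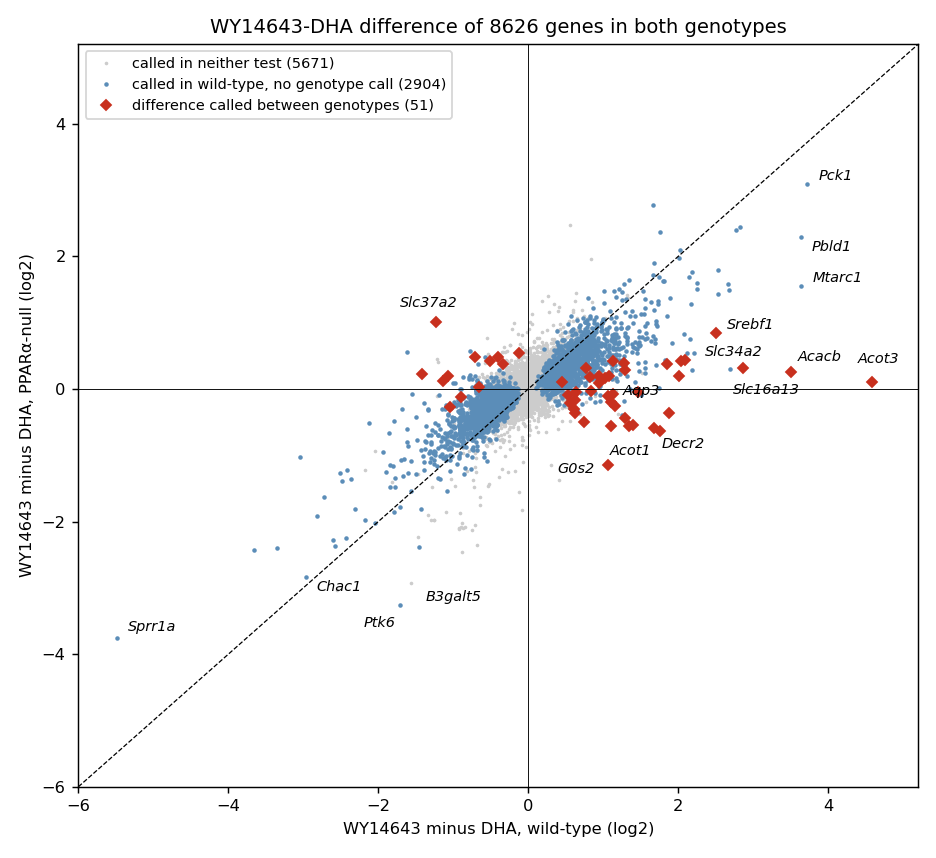
Log2 difference (WY14643 minus DHA) of 8626 genes in wild-type mice (x axis) against PPARα-null mice (y axis). Grey points are called in neither test, blue points in wild-type mice without a genotype call, and red diamonds are the 51 genes with a genotype call.

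Several of these genes had opposite signs in the genotypes. G0s2 was higher in wild-type mice and lower in null mice (-1.15, adjusted p = 0.0398), with a genotype difference of 2.21 (adjusted p = 0.0468), a call that was lost in 14 of the 17 fits. Its call in null mice was lost in 7. Without PPARα-null DHA replicate 3 the null difference was -1.40 (adjusted p = 0.00918) and the genotype difference 2.46. Hadha differed by 0.61 in wild-type and by -0.31 in null mice (adjusted p = 0.0478), a genotype difference of 0.92 (adjusted p = 0.0043) that held in each fit, whereas its call in null mice was lost in 13. Without the array these were -0.36 (adjusted p = 0.017) and 0.97. Slc37a2, a sugar phosphate exchanger, read 3.81, 3.27, 4.08 and 4.32 after WY14643 and 5.67, 5.39, 4.97, 4.42 and 5.05 after DHA in wild-type mice, but 4.87, 6.20, 5.59 and 5.74 against 4.60, 5.05, 4.52 and 4.19 in null mice. All wild-type WY14643 mice lay under the limit. Its genotype difference was -2.24 (adjusted p = 0.0214), or -2.21 without the array and -1.04 (adjusted p = 0.0214) on the scale with 32 added, lost without wild-type WY14643 replicate 1 or 2 (adjusted p up to 0.0592). Genotype differences that held in each fit were also those of Aqp3, a glycerol and water channel (2.25), Abca1 (1.90), Ehhadh (1.65), Mgll (1.29) and Gsta2 (-1.64). Those of Decr2 (2.27), Acot1 (2.40), Srebf1 (1.65) and Pparg (-1.27) were lost in 10 to 12 of the 17 fits. All genes named in this paragraph kept the genotype call without PPARα-null DHA replicate 3.

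Over all genes 7.93% were higher and 5.38% lower in null mice (14.3% and 11.7% without PPARα-null DHA replicate 3). Genotype calls made up 0.591% (0.707% without the array). By list, of the 23 mitochondrial oxidation genes 3 were higher and 2 lower in null mice (4 and 3 without the array). These counts were not far from the shares over all genes, and 4 members had a genotype call (5 without the array). Of the 33 peroxisomal genes 6 were higher (10 without the array) and 5 had a genotype call. The fuel switch genes counted 8 of 18 higher in null mice (9 without the array). Pck1 read 11.72, 12.01, 12.31 and 12.17 after WY14643 and 6.99, 8.07, 11.45 and 9.32 after DHA in null mice, where 11.45 belongs to replicate 3. Its difference there was 3.09 (adjusted p = 0.0148), and its genotype difference was 0.63 (adjusted p = 0.873). Without the array these were 3.92 (adjusted p = 0.000244) and -0.21. Of the lists mostly lower in wild-type mice, 10 of 27 stress response genes were called lower in null mice (15 without the array), 13 of 19 for ribosome biogenesis (17) and 6 of 27 for proliferation (14). None of these lists held a genotype call, with or without the array. Chac1 differed by -2.83 in null mice (adjusted p = 0.00895), or -3.32 without the array (adjusted p = 0.000401), and Sprr1a by -3.76 (adjusted p = 0.0281), the latter with 1 DHA mouse, replicate 3, at 2.25 and the other 3 at 7.99, 6.97 and 9.08. Without replicate 3 the difference of Sprr1a was -5.20 (adjusted p = 0.000109), and its call was lost without any 1 of the other DHA mice or of WY14643 replicates 2, 3 and 4, with adjusted p-values up to 0.104. A missing genotype call does not show that the genotypes were alike.

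The remaining wild-type groups, OA and EPA, were set beside the contrast. Both were given as oils, like DHA, so nearness to DHA cannot be told apart from a shared vehicle and fat load. Of the 1437 higher genes the mean of the OA mice lay nearer the DHA mean than the WY14643 mean in 1181 (82.2%), and that of the EPA mice in 91.4%. Of the 1517 lower genes these shares were 84.6% and 93.9%. Without EPA replicate 5, an array that goes against its genotype label, the EPA shares were 92.4% and 95.1%. Srebf1 and G0s2 were among the exceptions, with OA means of 9.55 and 9.14 near or above the WY14643 means of 10.07 and 8.81.

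**Figure D5:**
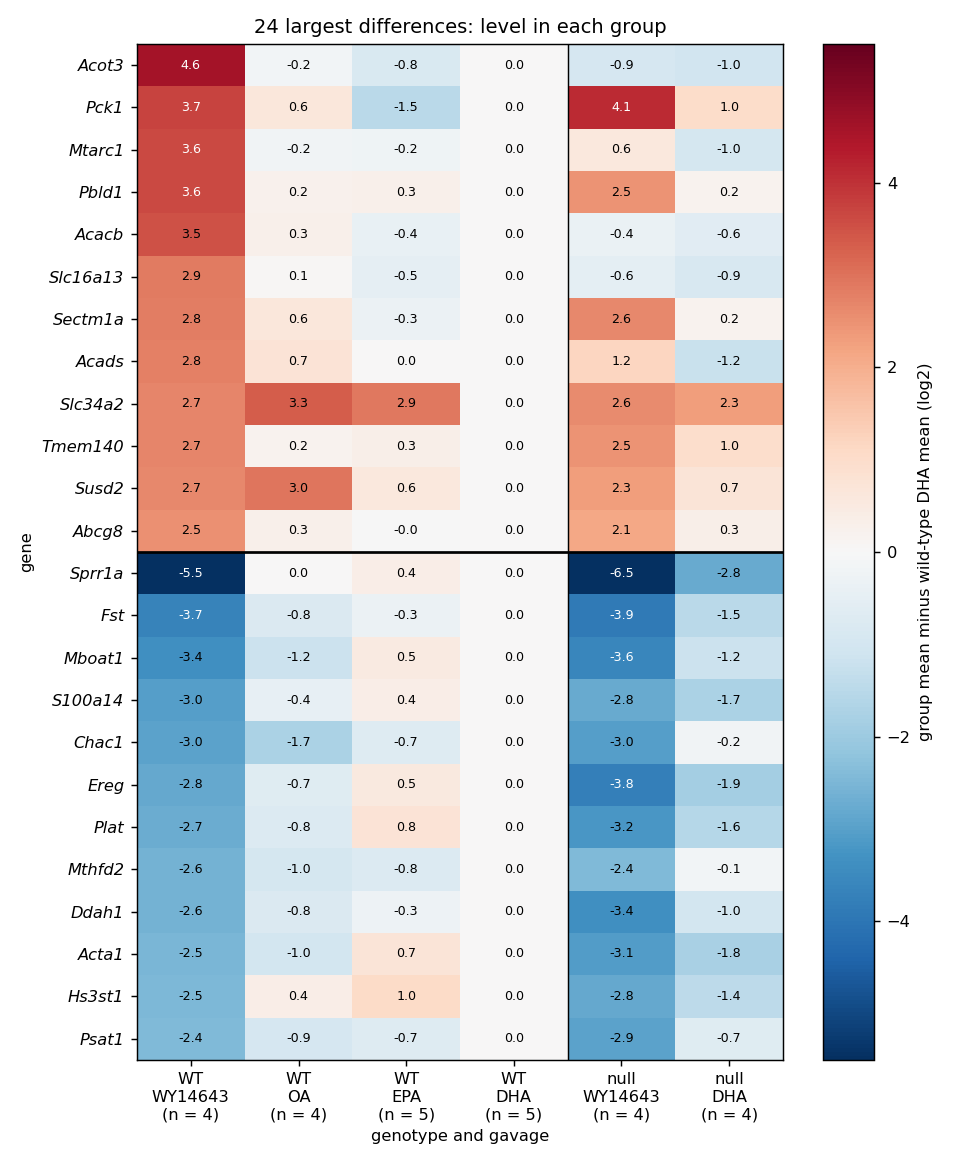
Heat map of the 24 genes with the largest differences, each cell the group mean minus the wild-type DHA mean on the log2 scale, for wild-type mice after WY14643, OA, EPA and DHA and PPARα-null mice after WY14643 and DHA. The wild-type WY14643 column stands apart from the OA and EPA columns in most rows, with Slc34a2 and Susd2 as rows in which the OA column is high as well. The EPA column includes replicate 5, an array that goes against its genotype label.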

How the data were processed

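RNA of the full-length small intestine was hybridised to Affymetrix whole-genome mouse arrays, 1 mouse per array. The authors computed log2 expression estimates with GCRMA, and these deposited log2 estimates, with array medians from 2.83 to 2.88, were not normalized again. The GCRMA version is not given in the sources used here. Of 45037 probesets other than controls, the array's annotation gave 1 symbol for 34957, several for 920 and none for 9160. Of the symbols 99.7% occur in the RefSeq table of GRCm38.p6.

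A single limma 3.58.1 (R 4.3.3) model with 4 group means was fitted to the 17 WY14643 and DHA arrays of both genotypes with an intensity trend. The Benjamini-Hochberg adjustment ran over 15384 expressed probesets. OA and EPA arrays stayed out because 3 of them go against their genotype labels. A gene was read from its expressed probeset of highest mean. For 8 called genes, other expressed probesets were called in the opposite direction. Genes with 1 group under 32 are given as at least the ratio to 32. The fit was tested on simulated data with 66 changes of 0.5 and 67 each of 1 and 2 on the log2 scale among 15384 probesets. There 42.4% of changes of 0.5 and 79.1% of changes of 1 were recovered. A far larger share was called in the real contrast, so these values do not give the sensitivity of its lists. The replicate numbers did not pair the mice. The number of mice limits the precision.

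The genes named were the 12 largest differences in each direction without overlap, up to 4 called members of each list, the 5 largest differences in PPARα-null mice and the 8 largest genotype differences. Ppara, Ppard, Pparg and Rxra were named whether called or not. Other named genes were added after their values were seen. The members and lists were chosen with earlier results of these data known. Alternatives covered the filter, trend, prior, normalization, arrays used, weights, probesets, threshold, block and single arrays left out.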

Additional observations from a re-analysis of the deposited data

Results flagged for a closer look

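Among 35 genes tested in 2 wild-type groups each, 4 of 70 groups held 1 mouse far from the rest, where chance gives 3.5. In 3 of these it was WY14643 replicate 4: Acot3 at 6.39 (the others 8.24 to 8.55), Abcg8 at 9.83 (10.65 to 10.76) and Ppara at 11.06 (11.67 to 11.71). The other was Susd2 in WY14643 replicate 2 at 9.24 (8.76 to 8.78).

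In 18 named genes the difference between WY14643 and DHA was itself different between wild-type and PPARα-null mice by the genotype term in limma. The wild-type difference was more positive for Acot3 by 4.47, Acacb by 3.25, Slc16a13 by 2.56, Acot1 by 2.40, Decr2 by 2.27, Aqp3 by 2.25, G0s2 by 2.21, Abca1 by 1.90, Ehhadh by 1.65, Srebf1 by 1.65, Mgll by 1.29, Slc25a20 by 1.24, Hadha by 0.92 and Acot8 by 0.65 on the log2 scale. It was more negative for Akr1c13, an aldo-keto reductase (-0.88), Pparg (-1.27), Gsta2 (-1.64) and Slc37a2 (-2.24). With single arrays left out, the calls of Acot3, Acacb, Slc16a13, Aqp3, Abca1, Ehhadh, Mgll, Hadha and Gsta2 held in each of 17 fits, and those of the other genes did not. The sizes for Acot3, Acacb and Slc37a2 rest in part on levels under the expression limit.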

How the results depend on the processing

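The wild-type counts of 1437 higher and 1517 lower genes stayed within 1.5 times under each alternative except an adjusted p under 0.01, which gave 763 and 785. With single arrays left out they ranged from 1075 to 1569 and from 1044 to 1644. The PPARα-null count of 1148 was 552 with no filter on the level, 186 with only the groups compared, 2534 with array weights and 41 at an adjusted p under 0.01. It ranged from 184 to 2242 with single arrays left out. The genotype count of 51 was 32 with no filter, 192 with array weights, 20 at an adjusted p under 0.01, 281 at an unadjusted p under 0.01 and 88 with the 32 arrays left after 3 OA and EPA arrays that go against their labels were removed, an alternative added after the data were seen. It ranged from 24 to 89 with single arrays left out. The causes were not tested. A replicate block, although the numbers did not pair the mice (correlations from -0.47 to 0.45), gave 1117 higher and 1239 lower genes, 1369 in PPARα-null mice and 40 for genotype. No named gene that was called in wild-type mice changed direction. Ppard, which was not called, ran from -0.18 to 0.04, and the medians of 13 gene lists crossed 0, among them fatty acid synthesis (-0.16 to 0.18). Below 32 a level says little about the size of a difference, and agonist, vehicle and fat load were given together.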

Other observations

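Further gene families, chosen by their names after the values were seen, are given as counts. Cytosolic aminoacyl-tRNA synthetases, which charge amino acids onto tRNA, were lower after WY14643 than after DHA in 16 of 19 genes and higher in 0, with a median of -0.72 in wild-type mice, and 13 were lower in PPARα-null mice (17 without PPARα-null DHA replicate 3). Genes of the cytosolic chaperonin, which folds actin and tubulin, were lower in 8 of 8 (median -0.44), and proteasome genes in 27 of 37 with 3 higher (median -0.32). Nuclear import and export receptors and nucleoporins were lower in 21 of 35 and higher in 0 (median -0.37), and 1 of them was lower in PPARα-null mice (11 without that array). Translation initiation factors were lower in 22 of 44 and higher in 5.

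Of 76 mitochondrial ribosomal protein genes 30 were lower and 1 higher (median -0.24). Of 43 cytosolic ribosomal protein genes 3 were lower and 4 higher, with a median of 0.00. Zinc finger (Zfp) genes, with 14 higher and 12 lower of 129, had a median of 0.00 as well. These counts stand beside 16.7% higher and 17.6% lower over all expressed genes.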
